A study of Mus musculus with 16 samples.

Results

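Igfbp4, Lrrc75b, L1cam, Amigo2, Ggt5, Gprasp1, Tent5a, Pdlim4 and Pcbp4 are 9 mouse genes that were read at a lower level in Tsc1-deficient than in wild-type resting CD4 T cells. They were chosen by that difference, measured on the 6 unstimulated CD4 arrays, and every probe set of the array named for them is described here, which gave 18 probe sets that name 1 of these genes alone, among 17097 genes and 45141 probe sets in all. The 16 arrays fall into 6 groups of naive T cells sorted from C57BL/6 mice. Tsc1-deficient and wild-type CD8 cells were taken without stimulation (0 h, 2 arrays each), Tsc1-deficient and wild-type CD4 cells after 4 h on plate-bound antibodies to CD3 and CD28 in Click medium (3 arrays each), and Tsc1-deficient and wild-type CD4 cells without stimulation (0 h, 3 arrays each). The series title concerns the part of Tsc1 in keeping naive T cells quiescent. The labels give no allele, no deleter strain and no age for the Tsc1-deficient mice, and 1 sentence of the treatment text names HIF1a deficiency where the genotype, the titles and the sample sources all give Tsc1. Nothing in the labels says that arrays of a group came from separate mice, so the p-values below measure the spread between arrays, which may be technical.

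Tsc1 pairs with Tsc2 in a complex that holds back Rheb, the small GTPase that switches on the kinase complex mTORC1, so cells without Tsc1 have high mTORC1 activity and are larger. Naive T cells circulate in a resting state, and contact with antigen through the T cell receptor and CD28 moves them out of it within hours while the transcripts of many resting-state genes are lost. The 9 genes do not form a pathway. Igfbp4 is a secreted protein that binds insulin-like growth factors and keeps them from their receptor, and Ggt5 is a cell-surface enzyme that removes gamma-glutamyl groups, with leukotriene C4 among its substrates. L1cam and Amigo2 are transmembrane adhesion molecules known mainly from neurons, and Lrrc75b is a leucine-rich repeat protein. Gprasp1 binds the tails of G protein-coupled receptors and sorts them to lysosomes, Pdlim4 ties PDZ and LIM domains to the actin skeleton, Tent5a lengthens the poly(A) tails of mRNAs, and Pcbp4 binds C-rich RNA.

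RefSeq promoter sequences (build GRCm38.p6) were held for 6 of the 9 genes, Amigo2, Gprasp1, Igfbp4, L1cam, Pdlim4 and Tent5a. The 250 bases before the transcript start are shown for Igfbp4, which had the largest difference of the 9 between genotypes, and for Pdlim4 and Amigo2, whose windows hold both of the letter strings found in these genes. Igfbp4 lies on the + strand at chr11:99040994-99041243, Pdlim4 on the - strand at chr11:54069018-54069267 and Amigo2 on the - strand at chr15:97247288-97247537. Each is written 5′ to 3′ on the strand of the gene, with matches in capitals.
Igfbp4: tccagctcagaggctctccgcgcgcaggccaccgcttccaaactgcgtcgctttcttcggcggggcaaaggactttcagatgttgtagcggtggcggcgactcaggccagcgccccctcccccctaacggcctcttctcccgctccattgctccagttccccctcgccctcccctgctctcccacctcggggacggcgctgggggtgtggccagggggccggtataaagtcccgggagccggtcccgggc
Pdlim4: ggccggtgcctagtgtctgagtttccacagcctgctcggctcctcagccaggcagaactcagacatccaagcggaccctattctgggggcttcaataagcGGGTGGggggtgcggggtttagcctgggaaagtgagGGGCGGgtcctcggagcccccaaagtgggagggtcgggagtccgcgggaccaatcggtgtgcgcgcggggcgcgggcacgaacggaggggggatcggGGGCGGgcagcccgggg
Amigo2: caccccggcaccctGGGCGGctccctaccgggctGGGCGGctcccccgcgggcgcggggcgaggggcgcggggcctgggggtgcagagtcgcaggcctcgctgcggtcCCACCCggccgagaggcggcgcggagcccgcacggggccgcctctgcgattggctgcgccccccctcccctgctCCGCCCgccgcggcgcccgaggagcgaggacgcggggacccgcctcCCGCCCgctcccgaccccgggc
The capitals mark CCACCC, the letters of a KLF site, and GGGCGG, the letters of an SP site, read on both strands. The 6 genes have 8 windows, since L1cam and Tent5a have overlapping windows from alternative starts. KLF letters stood in 2 of the 8, those of Amigo2 and Pdlim4, and in 28.1% of all 32851 promoter windows of the same length. SP letters stood in 6 of the 8, from 4 of the 6 genes (Amigo2, L1cam, Pdlim4 and Tent5a), and in 32.7% of all windows. The FOXO letters GTAAACA, the E-box CACGTG, the TCF/LEF letters CTTTGA and the RUNX letters TGTGGT stood in none of the 8, against 3.17%, 6.02%, 13.8% and 14% of all windows. The Igfbp4 window held none of the 6 strings. The windows of these genes were 52.4 to 84.0% G and C, against a median of 52.4% over all windows. A match is a string of letters and not a bound site, and a missing match says only that the letters are not in these windows.

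Values are log2 signals, and each gene is given by its brightest probe set unless said otherwise. The median of the whole table was 3.36, and 23 control probe sets that match no mouse transcript had a median of 2.0 with a range of 1.56 to 5.83, so a signal below about the table median may be background. Arrays of a group correlated at 0.992 to 0.997. The Gapdh control probe sets, a sign of RNA integrity, differed between their 3′ and 5′ ends by 0.96 on deficient stimulated CD4 array 1 and by 0.64 on deficient CD8 array 2, against 0.02 to 0.40 on the other 14 arrays. Tsc1 itself fell by 0.55 in deficient CD8 cells (limma, adjusted p = 0.0164) and by 1.06 in deficient stimulated CD4 cells (adjusted p = 1.75e-05), and it stood 0.83 lower in deficient unstimulated CD4 cells, by its brightest probe set, while its 2 other probe sets passed the test in none of the 3. The Tsc1 call in CD8 cells was lost without wild-type CD8 array 1 (-0.50, adjusted p = 0.109), with the CD8 arrays alone (adjusted p = 0.0979) and with probe sets averaged (-0.13, adjusted p = 0.554). Cd4 averaged 8.98 in deficient and 8.95 in wild-type unstimulated CD4 cells, and 4.80 in deficient and 4.35 in wild-type CD8 cells, while Cd8a averaged 11.61 in deficient and 11.51 in wild-type CD8 cells and 5.58 in deficient and 6.42 in wild-type unstimulated CD4 cells. The labelled lineages carried their own markers. Of 3 CD8 markers tested, 2 were called lower in deficient unstimulated CD4 cells, Cd8a among them (-0.84, limma adjusted p = 0.0268). Of the same markers 0 were called between genotypes in CD8 or stimulated CD4 cells. The part of this in the differences of the 9 genes was not tested.

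Summed signals of neutrophil markers were higher on every deficient array than on any wild-type array of the same condition. The summed log2 signal of the 6 genes S100a8, S100a9, Ngp, Camp, Ltf and Elane ran over 31.18 to 37.04 in deficient and 21.82 to 29.35 in wild-type CD8 cells, over 30.72 to 39.10 in deficient and 19.99 to 23.62 in wild-type stimulated CD4 cells, and over 29.01 to 40.37 in deficient and 20.95 to 28.19 in wild-type unstimulated CD4 cells. Elane was below the table median on every array. Of the 6 genes, limma called 0 higher in CD8 cells, where 3.64% of all genes were called higher. It called 4 of the 6 higher in stimulated CD4 cells, where 5.59% of all genes were. In unstimulated CD4 cells 1 of the 6 was called higher, where 677 of all 17097 genes were. Among the 14 measured markers of B cells, monocytes or macrophages, NK cells and regulatory T cells, Gzma of cytotoxic cells was called higher in deficient cells of all 3 conditions (1.36, limma adjusted p = 0.0444, in CD8 cells, 1.61, adjusted p = 0.00308, in stimulated CD4 cells and 1.19, adjusted p = 0.0306, in unstimulated CD4 cells). Of the 3 NK markers, Gzma was the only 1 called in each condition, and 2 lay below the table median on every array. The median difference of these 3 was 0.05 in CD8, -0.02 in stimulated CD4 and 0.36 in unstimulated CD4 cells. The B cell gene Cd79b was called higher in deficient CD8 (0.99, adjusted p = 0.0108) and unstimulated CD4 cells (0.63, adjusted p = 0.0448). In deficient stimulated CD4 cells the macrophage genes Lyz2 (1.18, adjusted p = 0.0238) and Mpeg1 (0.83, adjusted p = 0.0243) and the regulatory T cell genes Il2ra (0.69, adjusted p = 0.0379) and Ikzf2 (0.73, adjusted p = 0.0232) were called higher. Foxp3, the other regulatory T cell gene listed, was not called there. The part of these markers in the differences described below was not tested. Stromal and endothelial cells also express several of the 9 genes, and 5 of their 6 markers lay below the table median on every array of each group. In a bulk sample, fewer cells that express a gene and less RNA of it per cell cannot be told apart.

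The choice rests on unstimulated CD4 cells, where the 9 genes stood lower by 1.14 (Pcbp4) to 2.24 (Igfbp4) on the log2 scale in Tsc1-deficient cells, and no test is drawn from that difference. The choice fixes that all 9 were called lower there, where 1.87% of all genes were called lower, and nothing is read from that count. Among genes called lower, with groups that did not overlap and signal above the table median, they were the genes with the largest differences apart from A530021J07Rik (-2.04) and 1110032F04Rik (-1.17). Pcbp4, at -1.14, was the last inside, and Il18r1, also at -1.14, was the first outside. By the table median, lost is too strong a word for most of them. On every deficient unstimulated CD4 array 8 of the 9 remained above it, and Lrrc75b was below it on all 3. Pcbp4 exceeded the highest of the 23 control probe sets on 0 of 3 deficient arrays, and Amigo2 and Ggt5 on 1 of 3. These genes exceeded it on all 3 wild-type arrays, so whether they were lost cannot be told.

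Most of the 9 genes were also lower in Tsc1-deficient cells on the arrays that the choice did not use. In CD8 cells 8 of the 9 fell, with Igfbp4 by 4.44 on the log2 scale (21.7-fold lower) and Lrrc75b by 2.39, a size that is uncertain because 1 of its 2 deficient arrays lay below the table median, and Pcbp4 did not pass the test. In CD4 cells stimulated for 4 h, 6 of the 9 fell, by 0.54 (Pdlim4) to 0.96 (Igfbp4), and Lrrc75b, Ggt5 and Tent5a did not pass. Igfbp4, L1cam, Amigo2, Gprasp1 and Pdlim4 fell in both. The fit took its spread from all groups, including the unstimulated CD4 arrays that chose the genes. The choice required groups without overlap there, which favours a small spread and so more calls. With the compared arrays alone 5 of the 9 were called in CD8 cells. In stimulated CD4 cells Igfbp4 (limma adjusted p = 0.0534) and Pcbp4 (adjusted p = 0.055) then lost their calls. Those fits also hold fewer arrays, and the part of the choice in the calls was not tested.

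Limma with Benjamini-Hochberg adjustment over all 17097 genes called 2.18% of genes lower in CD8 cells and 3.86% lower in stimulated CD4 cells, and 120 genes (0.702%) lower in both. The CD8 share stands for 373 genes, against 97 without wild-type array 1, 145 without wild-type array 2, 537 without deficient array 1, 150 without deficient array 2 and 74 with the CD8 arrays alone. In stimulated CD4 cells it stands for 660 genes, against 411 without wild-type array 1, 387 without wild-type array 2 and 269 with those arrays alone. The median difference of the 9 was -1.0 in CD8 cells and -0.67 in stimulated CD4 cells, against -0.01 and 0.00 over all genes. Their arrays did not overlap between genotypes for 9 of the 9 in CD8 cells and 8 of the 9 in stimulated CD4 cells, where the deficient arrays were the lower ones for 23.1% and 11.3% of all genes. The CD8 count rests on 2 arrays per genotype: it was 4 without wild-type array 1, 5 without wild-type array 2 and 5 with only the 4 CD8 arrays in the fit.

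**Figure D1:**
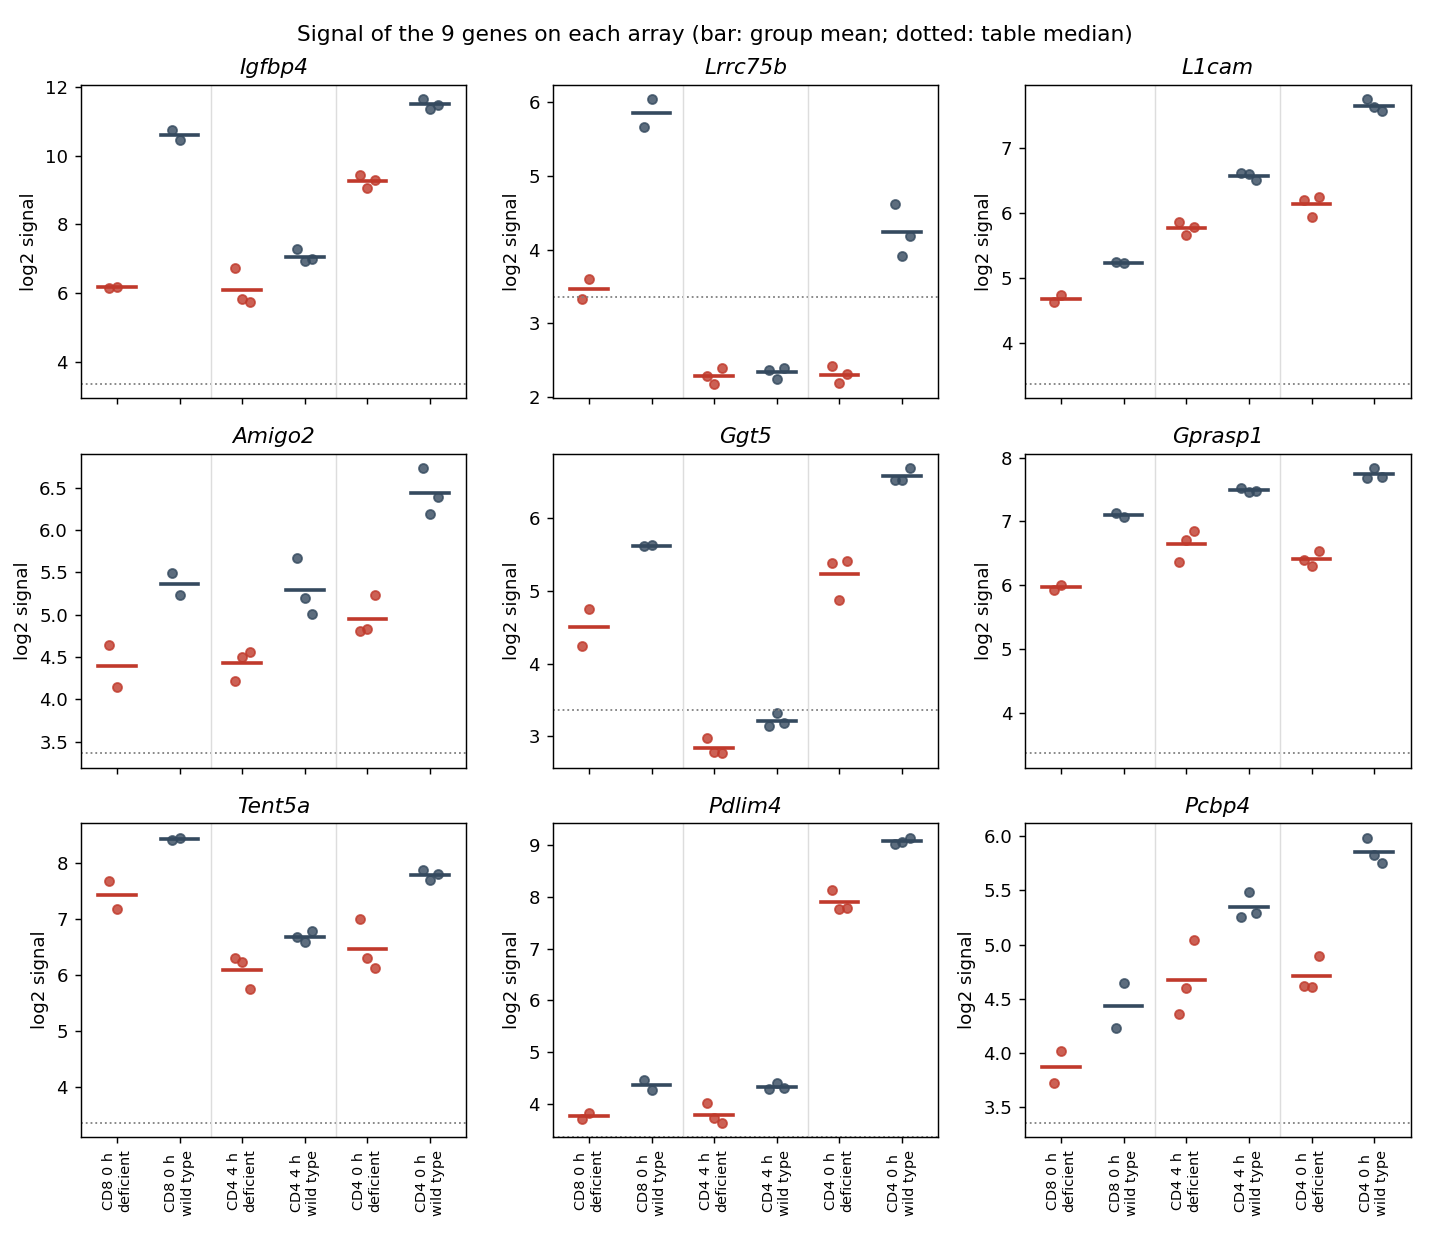
Log2 signal (vertical axis) of the brightest probe set of each of the 9 genes on every array, with the 6 groups along the horizontal axis, deficient in red and wild type in dark blue, bars for group means and a dotted line for the table median of 3.36. Deficient CD8 arrays lie below wild-type CD8 arrays in all 9 panels, and Lrrc75b and Ggt5 lie below the dotted line in both stimulated CD4 groups.

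**Figure D2:**
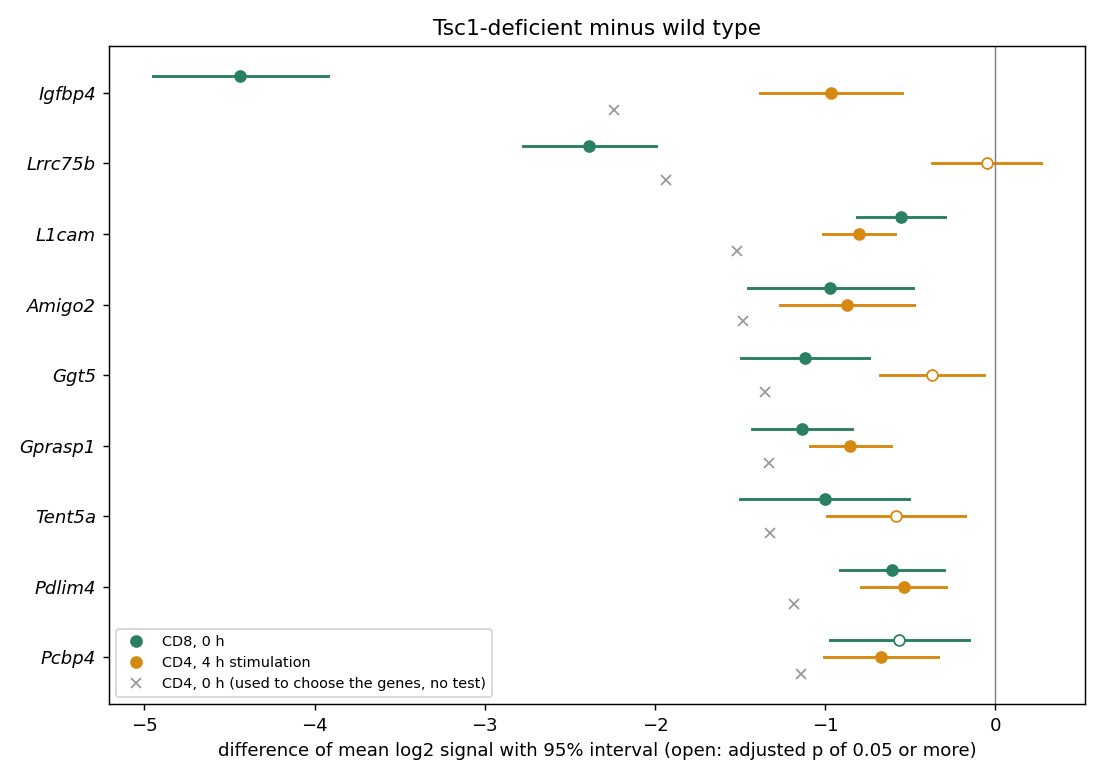
Difference in mean log2 signal, Tsc1-deficient minus wild type, for each of the 9 genes in CD8 cells, stimulated CD4 cells and unstimulated CD4 cells. Dots with lines are estimates with 95% intervals, open dots did not pass the test, and grey crosses show the difference that chose the genes, with no test. Every estimate lies below 0, with Lrrc75b in stimulated CD4 cells the nearest to it at -0.05.

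Igfbp4 had the largest difference of the 9 between genotypes in CD8 cells. It read 6.16 and 6.18 on the deficient CD8 arrays, against 10.75 and 10.47 on the wild-type CD8 arrays. After 4 h of stimulation it read 6.73, 5.83 and 5.76 on the deficient CD4 arrays, against 7.29, 6.92 and 6.99 on the wild-type CD4 arrays. In both conditions the deficient arrays were all lower, by a wide gap in CD8 cells and a narrow one in stimulated CD4 cells. Unstimulated deficient CD4 arrays read 9.43, 9.06 and 9.28, against 11.64, 11.36 and 11.48 in wild-type cells. The fall was 4.44 ± 0.24 (SE) in CD8 cells (adjusted p = 2.44e-08) and 0.96 ± 0.20 in stimulated CD4 cells (adjusted p = 0.00466, and 0.0534 with the 6 stimulated arrays alone in the fit). All 6 Igfbp4 probe sets were called lower in deficient CD8 cells, with differences of -4.93 to -1.68, when each probe set was tested on its own. In stimulated CD4 cells 3 of the 6 were called lower and their differences ran over -1.28 to 0.15. The mean of the 6 probe sets gave -0.63 in stimulated CD4 cells (adjusted p = 0.0155). Of the 6, 2 have IDs ending in _x_at and 1 in _s_at, which mark probes that may match other transcripts.

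Ggt5 was lower in deficient cells wherever it was read above the table median. It read 4.25 and 4.75 on the deficient CD8 arrays, against 5.61 and 5.62 on the wild-type CD8 arrays. After 4 h of stimulation the CD4 signals were 2.98, 2.79 and 2.77 on deficient arrays, against 3.14, 3.33 and 3.19 on wild-type arrays. The arrays of the 2 genotypes did not overlap in either condition, but all 6 stimulated arrays lay below the table median. In unstimulated CD4 cells the gene read 5.38, 4.88 and 5.42 on deficient arrays, against 6.53, 6.52 and 6.68 on wild-type arrays. Ggt5 fell by 1.12 ± 0.18 in CD8 cells (adjusted p = 0.00117), and in stimulated CD4 cells the difference was -0.37 ± 0.14 (adjusted p = 0.132; 95% interval -0.68 to -0.07). Its second probe set was called alongside, lower in CD8 cells and not passing in stimulated CD4 cells.

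L1cam, the best known member of its family of adhesion molecules, fell in both conditions. Deficient CD8 arrays read 4.63 and 4.73, against 5.23 and 5.23 on wild-type arrays. Deficient stimulated CD4 arrays read 5.86, 5.66 and 5.77, against 6.61, 6.59 and 6.49 on wild-type arrays. Each deficient array was below each wild-type array, with little spread within a group. Unstimulated CD4 signals were 6.20, 5.93 and 6.25 in deficient cells, against 7.74, 7.63 and 7.57 in wild-type cells. The fall was 0.80 ± 0.10 in stimulated CD4 cells (adjusted p = 7.2e-05) and 0.55 ± 0.12 in CD8 cells (adjusted p = 0.0116). The CD8 call was lost without wild-type array 1 (adjusted p = 0.0948), without wild-type array 2 (adjusted p = 0.0731), without deficient array 1 (adjusted p = 0.0623) and with the 4 CD8 arrays alone (adjusted p = 0.0964). A second L1cam probe set read 2.13 to 2.56 on all arrays, below the table median, and averaging it in gave -0.34 in stimulated CD4 cells (adjusted p = 0.0112) and -0.25 in CD8 cells (adjusted p = 0.173).

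Amigo2 carries leucine-rich repeats and an immunoglobulin domain outside the cell and binds other AMIGO proteins. Its signals were 4.64 and 4.14 on deficient CD8 arrays, against 5.49 and 5.23 on wild-type CD8 arrays. On stimulated CD4 arrays they were 4.22, 4.49 and 4.55 on deficient arrays, against 5.67, 5.20 and 5.0 on wild-type arrays. The deficient arrays were lower throughout without overlap, though the spread within each group was wider than for L1cam. In unstimulated CD4 cells the gene read 4.80, 4.83 and 5.23 on deficient arrays, against 6.73, 6.19 and 6.39 on wild-type arrays. Amigo2 fell by 0.87 ± 0.19 in stimulated CD4 cells (adjusted p = 0.0065) and by 0.97 ± 0.23 in CD8 cells (adjusted p = 0.0187). In CD8 cells the call was lost without wild-type array 1 (adjusted p = 0.176), wild-type array 2 (adjusted p = 0.0531) or deficient array 2, which has the high Gapdh difference (-0.72, adjusted p = 0.168), and with the CD8 arrays alone (adjusted p = 0.0636).

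Lrrc75b split by condition. It read 3.33 and 3.60 on the deficient CD8 arrays, against 5.66 and 6.04 on the wild-type CD8 arrays. Stimulated CD4 arrays read 2.28, 2.18 and 2.40 in deficient cells, against 2.37, 2.25 and 2.39 in wild-type cells. The CD8 genotypes stood far apart, while all stimulated CD4 arrays overlapped below the table median. Unstimulated deficient CD4 arrays, at 2.42, 2.18 and 2.31, lay at that same low level, against 4.62, 3.92 and 4.18 in wild-type cells. Lrrc75b fell by 2.39 ± 0.19 in CD8 cells (adjusted p = 1.03e-06), and in stimulated CD4 cells the difference was -0.05 ± 0.15 (adjusted p = 0.908; 95% interval -0.37 to 0.27). Since the deficient signals lay below the table median in unstimulated CD4 cells and close to it in CD8 cells, where they may be background, the sizes of both differences are uncertain.

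Gprasp1 was lower in deficient cells by 0.85 to 1.33 in the 3 conditions. Signals were 5.92 and 6.01 on deficient CD8 arrays, against 7.13 and 7.07 on wild-type CD8 arrays. After stimulation CD4 signals were 6.36, 6.72 and 6.85 on deficient arrays, against 7.52, 7.47 and 7.48 on wild-type arrays. Every deficient array lay below every wild-type array of the same condition, and no deficient array of any condition reached the lowest wild-type array. Unstimulated CD4 arrays read 6.39, 6.30 and 6.53 in deficient cells, against 7.68, 7.83 and 7.70 in wild-type cells. The fall was 1.14 ± 0.14 in CD8 cells (adjusted p = 0.000114) and 0.85 ± 0.11 in stimulated CD4 cells (adjusted p = 0.000136), beside 1.33 in the cells that chose it. A further probe set named for both Armcx5 and Gprasp1 read 2.76 to 3.32 on all arrays and was not used.

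Pdlim4 had its highest signal in unstimulated CD4 cells. It read 8.14, 7.76 and 7.79 on deficient and 9.02, 9.07 and 9.15 on wild-type unstimulated CD4 arrays. Deficient CD8 arrays read 3.69 and 3.82, against 4.47 and 4.26 on wild-type CD8 arrays. Deficient stimulated CD4 arrays read 4.00, 3.72 and 3.63, against 4.27, 4.40 and 4.30 on wild-type arrays. The CD8 and stimulated CD4 signals all lay little above the table median, with deficient arrays lower and no overlap. Pdlim4 fell by 0.54 ± 0.12 in stimulated CD4 cells (adjusted p = 0.00755) and by 0.61 ± 0.15 in CD8 cells (adjusted p = 0.0202). The CD8 call was lost without wild-type array 1 (adjusted p = 0.199), without deficient array 1 (adjusted p = 0.0967) and with the CD8 arrays alone (adjusted p = 0.0958).

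Tent5a had its highest signal in CD8 cells. It read 7.67 and 7.18 on deficient CD8 arrays, against 8.41 and 8.44 on wild-type CD8 arrays. Stimulated CD4 cells gave 6.30, 6.22 and 5.75 on deficient arrays, against 6.67, 6.58 and 6.77 on wild-type arrays. Deficient arrays were lower without overlap, and they scattered more than the wild-type ones. Unstimulated CD4 arrays read 6.98, 6.29 and 6.11 in deficient cells, against 7.87, 7.68 and 7.80 in wild-type cells. Tent5a fell by 1.0 ± 0.23 in CD8 cells (adjusted p = 0.018), and the difference in stimulated CD4 cells was -0.58 ± 0.19 (adjusted p = 0.0696; 95% interval -0.99 to -0.18). The stimulated difference passed without the 2 arrays of high Gapdh difference (-0.69, adjusted p = 0.0486). The CD8 call was lost without those arrays (-0.76, adjusted p = 0.128), without wild-type array 1 (adjusted p = 0.11), wild-type array 2 (adjusted p = 0.101) or deficient array 2 (adjusted p = 0.16).

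Pcbp4 was the reverse case, passing in stimulated CD4 cells and not in CD8 cells. Deficient stimulated CD4 arrays read 4.36, 4.60 and 5.04, against 5.26, 5.48 and 5.29 on wild-type arrays. Deficient CD8 arrays read 3.73 and 4.02, against 4.23 and 4.64 on wild-type CD8 arrays. The groups did not overlap in either condition, but the gaps between them were small. Unstimulated CD4 arrays read 4.62, 4.61 and 4.90 in deficient cells, against 5.98, 5.82 and 5.75 in wild-type cells. The fall was 0.67 ± 0.16 in stimulated CD4 cells (adjusted p = 0.0117), and the difference in CD8 cells was -0.56 ± 0.19 (adjusted p = 0.107; 95% interval -0.97 to -0.15). The stimulated call was lost without wild-type array 2 (adjusted p = 0.0596), without deficient array 1 (adjusted p = 0.0552) and with those 6 arrays alone (adjusted p = 0.055). This probe set ends in _x_at, and the 2 other Pcbp4 probe sets were called in no comparison. Averaging all 3 gave -0.38 in stimulated CD4 cells (adjusted p = 0.0335).

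Most of the 9 genes read lower after 4 h of stimulation in wild-type cells. The unstimulated wild-type arrays also chose the genes, which favours a fall from them, so the count is a description. There 8 of the 9 fell, with Pdlim4 by 4.76 (adjusted p = 9.56e-14), Igfbp4 by 4.43 (adjusted p = 4.36e-11) and Ggt5 by 3.36 (adjusted p = 3.62e-11), while 19.1% of all genes were called lower. Lrrc75b fell by 1.90, Amigo2 by 1.14, Tent5a by 1.11, L1cam by 1.08 and Pcbp4 by 0.51 (adjusted p = 0.0193). Gprasp1, at -0.25 ± 0.11, did not pass (adjusted p = 0.117), but it passed with array weights (adjusted p = 0.0315), with the 6 wild-type CD4 arrays alone (adjusted p = 0.0423) and without the 2 arrays of high Gapdh difference (adjusted p = 0.0286). Stimulated signals of Ggt5 and Lrrc75b lay below the table median, so the sizes of their falls are uncertain in wild-type cells, as is that of Ggt5 in deficient cells. In Tsc1-deficient cells 5 of the 9 fell, Pdlim4 by 4.11, Igfbp4 by 3.15, Ggt5 by 2.38, Amigo2 by 0.53 (adjusted p = 0.0346) and L1cam by 0.36 (adjusted p = 0.00773), while 21.5% of all genes were called lower. Tent5a (-0.37, adjusted p = 0.163), Pcbp4 (-0.04, adjusted p = 0.902), Lrrc75b (-0.02, adjusted p = 0.949) and Gprasp1 (0.23, adjusted p = 0.133) did not pass. Lrrc75b already lay below the table median on all 3 unstimulated deficient arrays, so a fall could hardly have been seen.

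These changes share their unstimulated arrays with the difference that chose the genes, so wild-type values are high and deficient values low there by choice, and the difference between the genotypes in the response to stimulation was not tested. The median of the 9 was -0.37 in deficient and -1.14 in wild-type cells, against -0.02 and -0.01 over all genes. With quantile normalization of the signals, 49.1% of all calls on stimulation in deficient cells and 47.6% in wild-type cells were of genes that fell, against 61.0% and 60.0% as deposited. Under it Gprasp1 was called higher on stimulation in deficient cells (0.45, adjusted p = 0.00341), and the calls of L1cam (-0.07, adjusted p = 0.694) and Amigo2 (-0.25, adjusted p = 0.3) there and of Pcbp4 in wild-type cells (-0.21, adjusted p = 0.377) were lost. In deficient cells the Amigo2 call was also lost without stimulated array 1 (adjusted p = 0.133), stimulated array 2 (adjusted p = 0.0537) or unstimulated array 3 (adjusted p = 0.167), that of Tent5a was gained without unstimulated array 3 (-0.55, adjusted p = 0.0446) and that of Gprasp1 without stimulated array 1 (0.37, adjusted p = 0.0051). Averaging probe sets gave -0.57 for L1cam in wild-type cells (adjusted p = 2.36e-05), -0.16 for L1cam in deficient cells (adjusted p = 0.152) and -0.24 for Pcbp4 in wild-type cells (adjusted p = 0.0934). The Pcbp4 call in wild-type cells was also lost without unstimulated array 1 (adjusted p = 0.0803), stimulated array 1 (adjusted p = 0.0696) or stimulated array 3 (adjusted p = 0.0617).

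**Figure D3:**
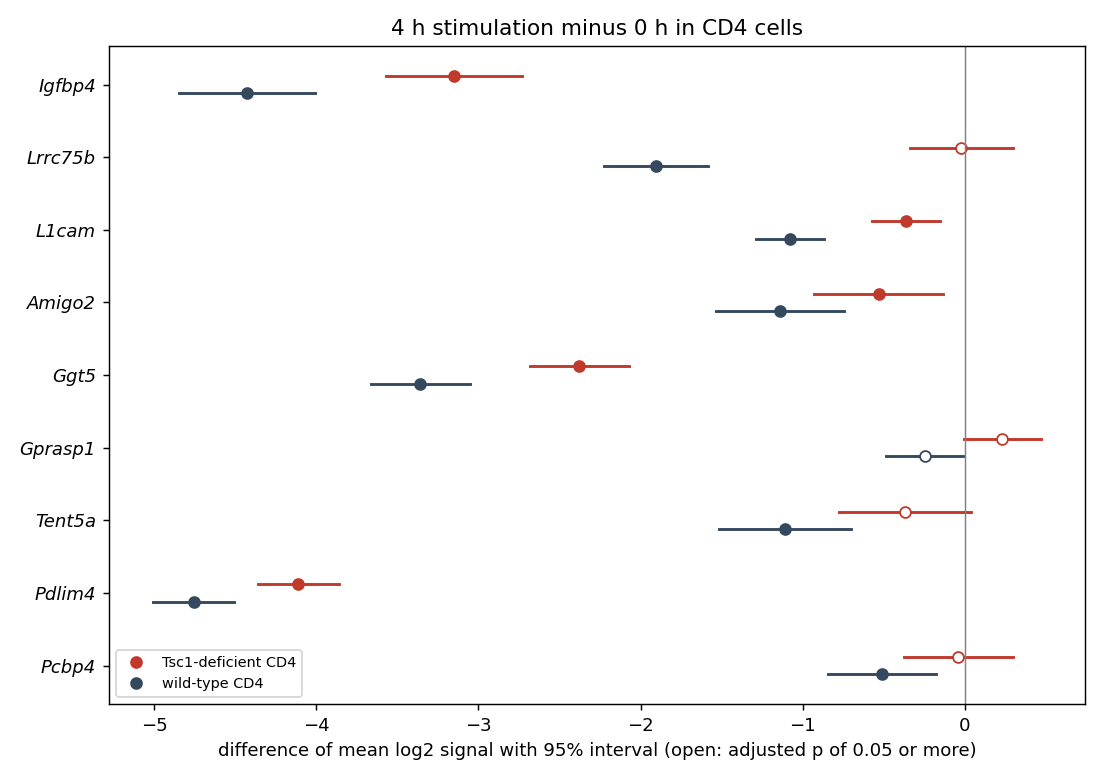
Difference in mean log2 signal between 4 h of stimulation and 0 h in CD4 cells, for each of the 9 genes, with 95% intervals, in Tsc1-deficient cells (red) and wild-type cells (dark blue). Open dots did not pass the test. Pdlim4, Igfbp4 and Ggt5 lie farthest below 0 in both genotypes, and Lrrc75b lies at -0.02 in deficient and -1.90 in wild-type cells. Deficient Lrrc75b signals were below the table median before and after stimulation.

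Between lineages, CD8 cells had less of most of the 9 genes than CD4 cells, both wild type and unstimulated. Pdlim4 was lower by 4.72 and L1cam by 2.41, and Pcbp4 (-1.41), Amigo2 (-1.07), Ggt5 (-0.96), Igfbp4 (-0.88, adjusted p = 0.0267) and Gprasp1 (-0.64) were also called lower, 7 of 9 against 2.57% of all genes. Lrrc75b was the 1 gene called higher in CD8 cells, by 1.61 ± 0.17 (adjusted p = 7.92e-06), against 2.47% of all genes, and Tent5a at 0.64 did not pass (adjusted p = 0.113). The wild-type CD4 arrays here also served the difference that chose the genes. That favours lower values in CD8 cells, so the counts are a description. Leaving out 1 array ended the Igfbp4 call for wild-type CD8 array 1 (adjusted p = 0.081) or 2 (adjusted p = 0.243) and for wild-type CD4 array 1 (adjusted p = 0.096) or 3 (adjusted p = 0.0692), and leaving out wild-type CD8 array 2 ended those of Amigo2 (adjusted p = 0.0899) and Gprasp1 (adjusted p = 0.0694), which left 5 genes called lower or higher. Tent5a passed with the 5 compared arrays alone (adjusted p = 0.00963), and averaging probe sets gave -1.28 for L1cam and -0.79 for Pcbp4.

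The order of the 6 groups differed between the genes. Wild-type unstimulated CD4 cells ranked first for all but Lrrc75b and Tent5a, which were highest in wild-type CD8 cells, and for all 9 genes the first group did not overlap the second. For Igfbp4 the next groups were wild-type CD8, deficient unstimulated CD4 and wild-type stimulated CD4 cells, each apart from its neighbour, and deficient CD8 and deficient stimulated CD4 cells overlapped at the bottom. For Pdlim4 deficient unstimulated CD4 cells came second, wild-type CD8 and wild-type stimulated CD4 cells overlapped below them, and the deficient groups of the same 2 conditions overlapped at the bottom. For Gprasp1 the 3 wild-type groups held the first 3 ranks and the 3 deficient groups the last 3. Over the 6 group means, the 36 pairs of genes correlated at -0.14 to 0.98 with a median of 0.64, and 4 pairs lay below 0. All pairs share the arrays and the group that chose them, so this is a description only.

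Igf1r, the receptor from which Igfbp4 withholds its ligands, went the other way. It read 8.26 and 8.25 on deficient CD8 arrays, against 6.91 and 6.68 on wild-type CD8 arrays. Stimulated CD4 cells gave 9.43, 9.19 and 9.34 on deficient arrays, against 8.84, 8.85 and 8.74 on wild-type arrays. Deficient arrays were all higher in both. Igf1r rose by 1.46 ± 0.14 in deficient CD8 cells (adjusted p = 1.01e-05) and by 0.51 ± 0.11 in deficient stimulated CD4 cells (adjusted p = 0.00853), calls that held in all 13 alternatives run for CD8 cells and all 15 for stimulated CD4 cells, and it stood 1.14 higher in deficient unstimulated CD4 cells. With stimulation it rose by 1.27 in deficient and 1.89 in wild-type cells, where Igfbp4 fell by 3.15 and 4.43. Whether the pair is linked was not tested.

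Calls among other genes of the insulin-like growth factor system are given beside the shares of all genes. In CD8 cells 3.64% of all genes were called higher and 2.18% lower, and in stimulated CD4 cells 5.59% and 3.86%. Of 22 listed ligands, receptors, binding proteins and their partners, 18 were measured, 17 besides Igfbp4. In CD8 cells 2 of the 17 rose, Igf1r and Igfbp6 (0.51, adjusted p = 0.041, with every group mean below the table median), and none fell in the limma fit, at an unadjusted p of 0.05 either. The Igfbp6 call was lost with the CD8 arrays alone (adjusted p = 0.176) and without deficient array 1 (adjusted p = 0.243), wild-type array 1 (adjusted p = 0.203) or wild-type array 2 (adjusted p = 0.147). In stimulated CD4 cells 1 rose, Igf1r, and 1 fell, the insulin receptor Insr (-0.39, adjusted p = 0.016). That Insr call was lost with the stimulated arrays alone (adjusted p = 0.101), when probe sets were averaged (-0.15, adjusted p = 0.261), and without wild-type array 1 (adjusted p = 0.0525), wild-type array 3 (adjusted p = 0.0661) or deficient array 1 (adjusted p = 0.0569). The median difference of the 17 was -0.01 in CD8 cells and 0.01 in stimulated CD4 cells.

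**Figure D4:**
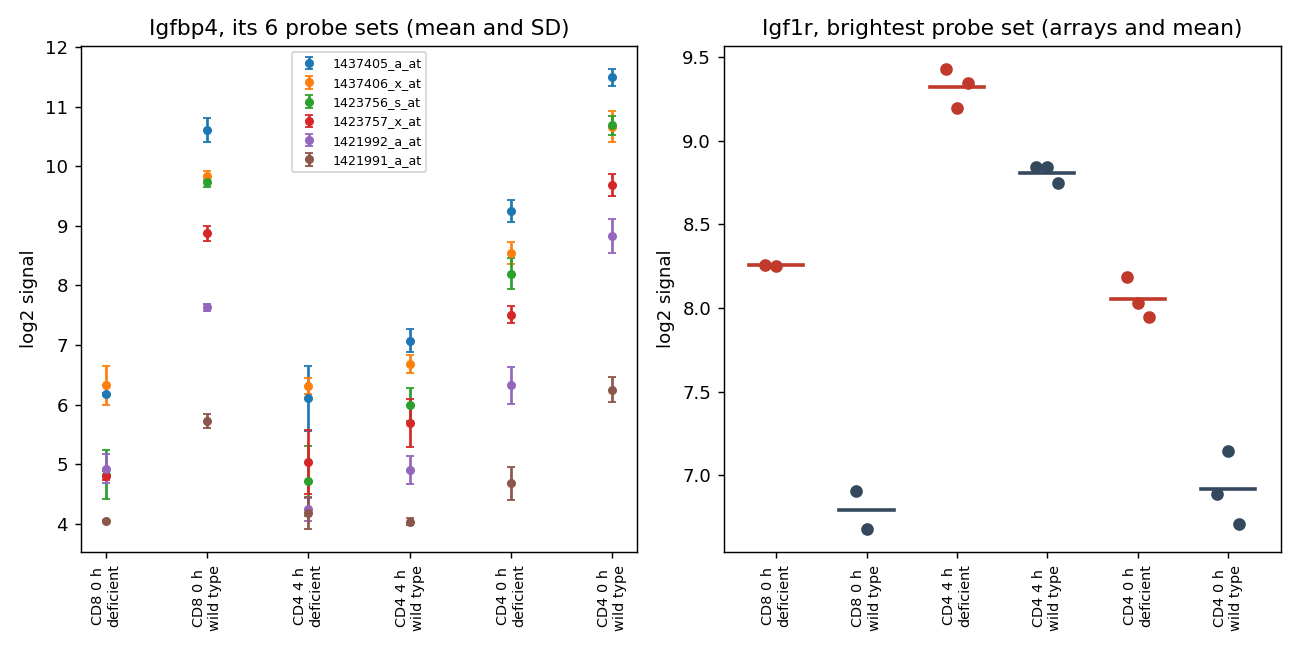
Log2 signal of Igfbp4 and of Igf1r in the 6 groups. Left, group mean and SD of each of the 6 Igfbp4 probe sets, named in the legend without the letters PM, and right, each array (dots) and the group mean (bars) of the brightest Igf1r probe set, deficient in red and wild type in dark blue. In CD8 cells the deficient group is lower for all 6 Igfbp4 probe sets and higher for Igf1r.

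Some relatives of the 9 genes also passed the test. Of all genes, 2.18% were called lower and 3.64% higher in deficient CD8 cells. In deficient stimulated CD4 cells 3.86% of all genes were called lower and 5.59% higher. Lrrc75a, Amigo1 and Tent5b passed in neither CD8 nor stimulated CD4 cells after limma adjustment, and at an unadjusted p of 0.05 Amigo1 (-0.35) and Tent5b (-0.29) were lower in stimulated CD4 cells. Of the 6 relatives and partners of L1cam that were measured 0 passed in either condition, and 1 was lower in each at an unadjusted p of 0.05. Among the 6 other PDZ-LIM genes, Pdlim1 (-0.69, adjusted p = 0.0033) and Pdlim7 (-0.85, adjusted p = 0.0045) fell and Pdlim5 (0.63, adjusted p = 0.0418) rose in deficient CD8 cells, and Pdlim2 fell in deficient stimulated CD4 cells (-0.52, adjusted p = 0.00525). With the CD8 arrays alone neither Pdlim1 (adjusted p = 0.0866) nor Pdlim7 (adjusted p = 0.0661) passed, and Pdlim7 was also lost without wild-type array 2 (-0.63, adjusted p = 0.0808). Pdlim5 was lost with the CD8 arrays alone (adjusted p = 0.106), with probe sets averaged (0.19, adjusted p = 0.429) and without each of the 4 CD8 arrays in turn (adjusted p = 0.0709 to 0.285). Of 4 other poly(C)-binding relatives, Pcbp2 was called lower in stimulated CD4 cells (-0.33, adjusted p = 0.0482), and of 11 other genes of the glutathione and leukotriene pathways the leukotriene A4 hydrolase Lta4h was called higher in CD8 cells (0.48, adjusted p = 0.0189). Armc10 was called lower in CD8 cells (-0.48, adjusted p = 0.0203), the 1 call among 7 other GPRASP and ARMCX relatives. The Pcbp2 call was lost without wild-type array 1 (adjusted p = 0.157), 2 (adjusted p = 0.0911) or 3 (adjusted p = 0.103) or deficient array 1 (adjusted p = 0.159) of the stimulated cells. In CD8 cells the Lta4h call was lost with probe sets averaged (0.09, adjusted p = 0.68), with the CD8 arrays alone (adjusted p = 0.141) and without each of the 4 arrays in turn (adjusted p = 0.0602 to 0.14), and the Armc10 call without wild-type array 1 (adjusted p = 0.148), wild-type array 2 (adjusted p = 0.085) or deficient array 2 (adjusted p = 0.153).

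Of 25 listed genes known from naive CD4 cells, 20 were measured. In deficient unstimulated CD4 cells 2 of the 20 were called lower and 2 higher, against 320 lower and 677 higher of all 17097 genes. Their median difference there was -0.19, and Lef1 did not pass (-0.205, limma adjusted p = 0.443). In deficient stimulated CD4 cells 9 of the 20 fell, where 3.86% of all genes were called lower, including the transcription factors Lef1 (-0.83 ± 0.12, adjusted p = 0.000373), Bach2 (-0.63) and Id3 (-1.60), the egress receptor S1pr1 (-1.28, adjusted p = 2.32e-05) and the membrane trafficking protein Nsg2 (-1.15 ± 0.13, adjusted p = 4.59e-05), and 2 rose, Igf1r and the antiproliferative factor Tob1 (0.78), where 5.59% of all genes were called higher. In deficient CD8 cells 1 of the 20 fell, Nsg2 (-0.99, adjusted p = 0.00174), and Igf1r and Tob1 rose, where 2.18% of all genes were called lower and 3.64% higher. After stimulation Nsg2 averaged 6.32 in deficient cells, against 7.47 in wild-type cells. The CD8 calls of Nsg2 (adjusted p = 0.062) and Tob1 (adjusted p = 0.0516) were lost with the CD8 arrays alone, and that of Tob1 also with probe sets averaged (0.46, adjusted p = 0.0585) and without wild-type array 1 (adjusted p = 0.0701), wild-type array 2 (adjusted p = 0.0515) or deficient array 2 (adjusted p = 0.0869). The median difference of the 20 genes was -0.32 in stimulated CD4 cells and -0.13 in CD8 cells, against 0.00 and -0.01 over all genes. The other 5 were not analysed here.

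Among 3533 other genes with group means that span at least 1 log2 unit, the pattern most like the average of the 9 over the 6 group means was that of Pid1 (r = 0.988), followed by Anxa5 (r = 0.983), A530021J07Rik (r = 0.980), App (r = 0.977) and Man1c1 (r = 0.976). Nearest to Igfbp4 alone were Casp8 (r = 0.988), Zfp763 (r = 0.980) and Slc49a4 (r = 0.979). These correlations share 6 groups and carry no test, and since the groups include both genotypes of every condition, the genotype differences of these 8 genes follow from the choice and are given as a description. In CD8 cells deficient minus wild-type means were -1.83 for A530021J07Rik, -1.06 for App, the amyloid precursor protein, -0.90 for Slc49a4, -0.82 for Casp8, the initiator caspase of death receptors, -0.65 for the mannosidase Man1c1, -0.62 for Anxa5, a phospholipid-binding annexin, -0.60 for Zfp763 and -0.35 for Pid1.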

How the data were processed

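The deposited values are log2 signals of probe sets, made by the authors with RMA in Partek 6.5, per the submitters' processing notes, from 16 single-colour Affymetrix arrays of total RNA extracted with an RNeasy kit, per the labels. They were used as deposited, so no scanner intensities or background calls stand behind them. Genes were named from the platform annotation: 28898 of the 45141 probe sets name 1 gene, 551 name several and were not used, 15588 name none and 104 are controls. Each gene was taken by its brightest probe set, by mean signal, with no filter on dim genes, and all 9 genes would pass the filter tried as an alternative, which keeps 9956 genes. Limma 3.58.1 in R 4.3.3 fitted the 6 group means over all 16 arrays (10 residual and 6.23 prior degrees of freedom), and p-values were adjusted by Benjamini-Hochberg over 17097 genes, with a gene called at 0.05. Precision is limited by the 2 or 3 arrays of each group. The fit was tested on simulated data. Alternatives averaged or separately tested all probe sets, filtered dim genes, centred or quantile-normalized arrays, used a trended robust prior, array weights or the compared groups alone, required a fold of 2, or left out arrays. The 9 genes, the gene lists and the motifs were chosen with earlier results of these data known. Named are the 9 genes, called or bright members of the family lists, and the 5 and 3 genes of most similar pattern. Array numbers follow the order of deposit. The titles carry consecutive numbers for unstimulated and stimulated CD4 arrays of a genotype, which the labels do not explain, and a fit with these as pairs was an alternative added after seeing the data. Python 3.11.15 and matplotlib 3.10.9 made the figures.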

Additional observations from a re-analysis of the deposited data

How the results depend on the processing

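In stimulated CD4 cells 129 of 135 combinations of gene and alternative kept direction and side of the threshold for the genotype difference of the 9 genes, and in CD8 cells 100 of 117 did, with 17 losing their call. Igfbp4, Lrrc75b, Ggt5 and Gprasp1 kept their CD8 calls in all 13 alternatives. The number of the 9 genes called in CD8 cells was 5 with the compared groups alone, 5 at 2-fold or more, and 4 to 6 with 1 array left out. At 2-fold or more it was 0 in stimulated CD4 cells, 3 for stimulation of deficient cells and 5 between lineages, where it was 5 to 8 with 1 array left out. Counts over all genes moved more. For genotype in stimulated CD4 cells 2564 were called with every probe set tested, 823 with the compared groups alone, 195 at 2-fold or more and 1062 (wild-type array 2) to 1715 with 1 array left out. For genotype in unstimulated CD4 cells the counts were 1937 with array weights, 1723 without the arrays of high Gapdh difference, 161 at 2-fold or more and 589 (deficient array 1) to 704 with 1 array left out; they were 610 without deficient array 2, and 625 and 606 without wild-type arrays 2 and 3. In CD8 cells they were 269 with the compared groups alone, 191 at 2-fold or more, and 305 (wild-type array 1) to 921 with 1 array left out, with 459 for wild-type array 2. Between lineages they were 1345 with every probe set tested, 1391 with array weights, 1324 without the arrays of high Gapdh difference, 247 at 2-fold or more, and 416 (wild-type CD8 array 2) to 620 with 1 array left out, with 422 for wild-type CD8 array 1. For stimulation they were 13683 with every probe set tested and 1876 at 2-fold or more in deficient cells, and 12112 and 1526 in wild-type cells. Testing every probe set enlarges the number tested; the cause of the other shifts was not tested. Quantile normalization raised the share of lower calls in unstimulated CD4 cells to 42.5%, against 32.1% as deposited. Lrrc75b in stimulated CD4 cells ran over -0.11 to 0.0041 with 1 array left out, and on stimulation of deficient cells over -0.081 to 0.038. Pcbp4 on stimulation of deficient cells was 0.033 with probe sets averaged, 0.25 under quantile normalization, 0.057 with array weights, 0.11 without the arrays of high Gapdh difference, and -0.23 to 0.11 with 1 array left out. None of these reversed values passed the test. The labels give no replicate numbers, but consecutive title numbers join each unstimulated CD4 array to a stimulated one of its genotype. Deviations from the group means correlated at 0.030 to 0.077 in these 6 pairs, under the 0.1 set for a pairing in each, though every unstimulated array correlated best with its own number, a hint from the data and not the design. With this replicate block, chosen after seeing the data, stimulation was called for 5933 genes in deficient and 5346 in wild-type cells, against 6041 and 5451 without it, and for 5 and 8 of the 9 genes as before, and no call of the 9 changed. Genotype was not tested with the block, since each pair holds 1 genotype. Signals near the table median, as for Lrrc75b, Ggt5 and Pdlim4 after stimulation, limit how small a difference could be seen.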

Other observations

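Lrrc75b and Ggt5 lie beside each other on chromosome 10 in the assembly GRCm38.p6, with 1 protein-coding gene, Ggt1, between them, which was not analysed here. Among the nearest measured genes, Gucd1, which encodes a guanylyl cyclase domain protein, averaged 7.45 in deficient and 7.92 in wild-type CD8 cells (-0.47, limma adjusted p = 0.0921) and 6.98 in deficient and 7.22 in wild-type stimulated CD4 cells (-0.24, adjusted p = 0.302). In unstimulated CD4 cells it averaged 7.77 in deficient and 8.23 in wild-type cells (-0.46, adjusted p = 0.0429), a call lost without each of the 6 arrays in turn (adjusted p = 0.0641 to 0.186). The splicing protein gene Snrpd3 averaged 11.18 in deficient and 11.33 in wild-type CD8 cells (-0.16, adjusted p = 0.773) and 10.30 in deficient and 10.74 in wild-type stimulated CD4 cells (-0.43, adjusted p = 0.151).

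Alox5ap, the activating protein of 5-lipoxygenase in the leukotriene pathway whose product Ggt5 cleaves, stood 1.09 higher in deficient than in wild-type unstimulated CD4 cells (adjusted p = 0.000603), while the differences were 0.37 in stimulated CD4 cells (adjusted p = 0.21) and 0.12 in CD8 cells (adjusted p = 0.832). On stimulation it changed by -1.38 in deficient cells (adjusted p = 3.23e-06) and by -0.66 in wild-type cells (adjusted p = 0.00473). The wild-type call was lost under quantile normalization (-0.41, adjusted p = 0.1), and the genotype difference in stimulated CD4 cells was called in 1 of 15 alternatives. Of the 11 genes besides Ggt5 listed for the glutathione and leukotriene pathways, 1 was called higher in deficient unstimulated CD4 cells and 0 lower. Of all 17097 genes, 677 were called higher there. The 1 call among the 11 need not be a gene besides Alox5ap. The summed signals of neutrophil markers were also higher on deficient arrays, and the part of these markers in the Alox5ap difference was not tested.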
